A study of Mus musculus with 42 samples.

Results

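Skeletal muscle of mice given the huoxue part of SHENQI compound was compared directly with skeletal muscle of mice given rosiglitazone, on 3 arrays of each group, which are 6 of the 42 arrays of the study. The members were chosen by their sample titles alone, and the comparison was made across all genes with a name on the array. All 6 mice were male KK/Ay mice, an inbred strain that becomes obese and diabetic, and all were made into a model of diabetic macroangiopathy by a diet rich in fat together with L-NAME, which blocks nitric oxide synthase, and were treated daily by gavage. The huoxue group (group E) received an extract of Salvia miltiorrhiza root and rhubarb, and the rosiglitazone group (group F) received the western antidiabetic drug. Untreated mice of the same model (group C) and healthy C57 mice (group G) serve below only as reference levels. The muscle that was sampled is not named, and the labels do not say whether a replicate number marks a separate cage or day, so the P values measure the spread between these samples.

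The strain is diabetic from its own genotype, and both groups carried the diet and L-NAME, so neither is a healthy control. Gavage reaches the whole animal and not muscle alone. The defining genes of skeletal muscle fibres were present on all arrays, and all 10 fibre markers were tested. Their summed linear level was 1134131 to 1179516 on the huoxue arrays and 1242305 to 1288747 on the rosiglitazone arrays, without overlap. This gap moved with the scaling: the median log2 difference, huoxue minus rosiglitazone, of the markers was -0.125 here and -0.005 with Agilent's processed signal. At an unadjusted P below 0.05, 1 was higher and 2 lower here (30.0%, beside 12.1% of all genes). With that signal 1 was higher and 0 lower.

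Rosiglitazone is a ligand of PPAR gamma, a nuclear receptor that is abundant in fat and scarce in muscle and that switches on genes of lipid uptake and storage. In muscle, related receptors control uncoupling protein 3 (Ucp3) and pyruvate dehydrogenase kinase 4 (Pdk4), which shift fuel use from glucose to fatty acids. The unfolded protein response, which raises chaperones and degradation factors when the endoplasmic reticulum is overloaded, is a known companion of insulin resistance in muscle and fat.

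The 6 arrays did not all share a slide. Huoxue arrays 1, 2 and 3 and rosiglitazone array 1 lay on slide 1, and rosiglitazone arrays 2 and 3 lay on slide 2, each slide with a scan of its own. On slide 1 the number of probes well above background was 20200 to 21549 per array, and the 2 rosiglitazone arrays of slide 2 had 23242 and 24321, with a median local background of 46 and 47 against 29 to 31 on slide 1. Pearson correlations over genes were 0.9878 to 0.9941 within groups and 0.9873 to 0.9912 between them, so the 2 ranges overlapped. A fit with slide as a fixed block rests on rosiglitazone array 1 against the 3 huoxue arrays. Its values are given below for some genes and lists only, so a missing value does not mean an unchanged call or count. The number of arrays limits the precision of both fits.

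Of 12627 genes tested, 1529 differed between the groups at P below 0.05 without adjustment (limma), the threshold of the study's methods, which is 12.1% of the genes tested. Of these, 655 (5.19%) were higher and 874 (6.92%) were lower in huoxue than in rosiglitazone muscle. None passed after Benjamini-Hochberg adjustment in limma, where the lowest adjusted p was 0.0609, against 1529 without adjustment. Genes below the unadjusted threshold are called "higher" or "lower" in what follows, with that limit. The differences were small, with a median size of 0.31 on the log2 scale, and 30 genes differed by at least 1, 25 of them lower and 5 higher in huoxue. The groups did not overlap in 1326 of the called genes, beside 2440 of all genes (19.3%). The genes named below for their size were picked among called genes without overlap. For them, groups that lie apart come from the choice and are no finding. Genes named for a low P value, in a list or over all genes, are favoured to lie apart as well. Their separation is thus no separate evidence. When Agilent's processed signal, scaled by each array's 75th percentile, replaced these values, the split turned to 1575 higher and 594 lower of 2169. The balance of the directions thus rests on the scaling. It moved with the filter as well: with genes well above background on all 6 arrays, 649 were higher and 772 lower. Leaving out rosiglitazone array 1, the only array of its group on slide 1, gave 50 genes past the adjusted threshold, and leaving out huoxue array 2 gave 1.

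**Figure D1:**
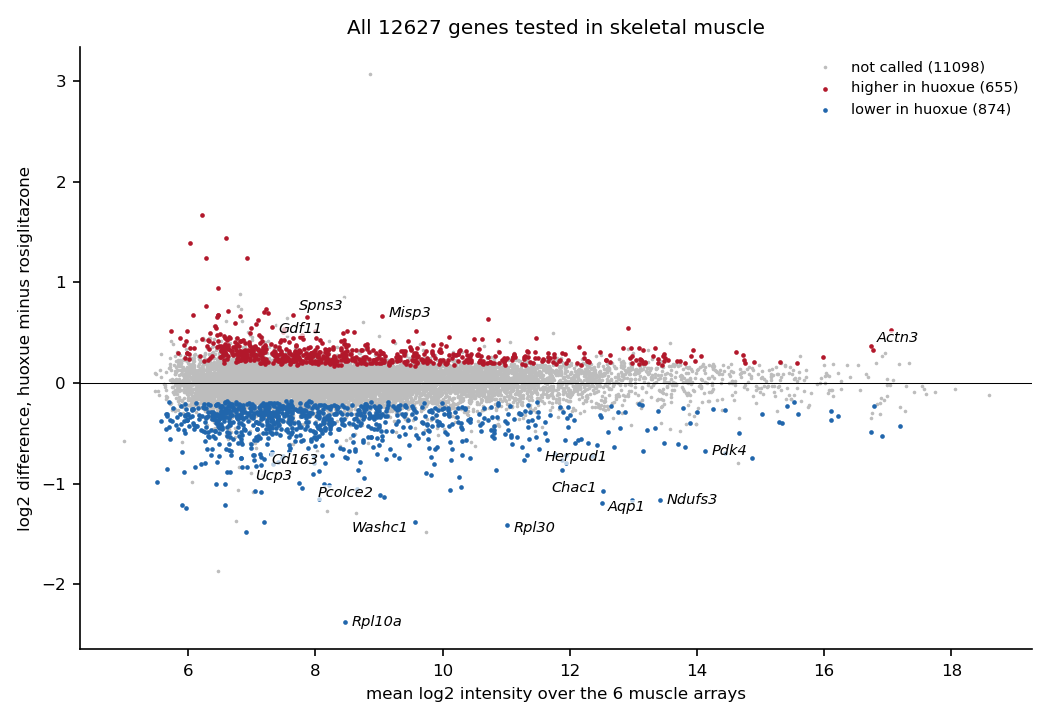
Each point is 1 of the 12627 genes tested, at its mean log2 intensity over the 6 muscle arrays (x axis) and its log2 difference, huoxue minus rosiglitazone (y axis). Red marks the 655 genes higher and blue the 874 genes lower in huoxue at an unadjusted P value below 0.05, and the lower genes reach further from 0, to -2.37 for Rpl10a.

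Of the 129 named genes, 84 were called, and 8 of these stayed called with the same sign under all 22 alternative ways of processing and fitting, the slide block among them. Cd163, Pcolce2 and Herpud1 were the lower ones, and Olfr1350, Misp3, Mep1a, Gdf11 and Foxo4 the higher ones.

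Cd163, the scavenger receptor by which macrophages take up haemoglobin bound to haptoglobin, had the lowest P value of all genes. Its log2 intensity was 7.75, 7.72 and 7.78 on the huoxue arrays and 8.58, 8.48 and 8.58 on the rosiglitazone arrays. The 3 huoxue values lay together and below every rosiglitazone value, and rosiglitazone array 1 on the shared slide was as high as the others. The difference was -0.80 ± 0.08 (SE, n = 3 against 3), an adjusted p of 0.0609 in limma, and it was -0.83 with slide as a block. Its single probe lies at chr6:124280484-124280543 (mm9, as given in the array files).

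Pcolce2 encodes an enhancer of the proteinase that trims procollagen, and its log2 intensity was 8.13, 8.45 and 8.77 in huoxue and 9.47, 9.59 and 9.63 in rosiglitazone muscle. The groups were apart, as its choice by size required, with the wider spread among the huoxue arrays. The difference was -1.11 ± 0.15 (adjusted p = 0.0895, limma), or 2.17-fold lower in huoxue, and -1.02 with slide as a block. The probe is at chr9:95595436-95595495 (mm9).

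Of the higher genes, Gdf11, a growth factor of the TGF-beta family, was at 7.88, 7.50 and 7.40 in huoxue and 7.08, 6.94 and 7.08 in rosiglitazone muscle (difference 0.56 ± 0.13, 0.52 with the slide block). Foxo4, a forkhead transcription factor that insulin signalling keeps out of the nucleus, was at 8.31, 8.27 and 8.16 in huoxue and 7.44, 7.85 and 7.91 in rosiglitazone muscle (0.51 ± 0.13, 0.80 with the block). Mep1a, a subunit of the metalloprotease meprin, was at 7.11, 7.46 and 7.53 against 6.40, 6.94 and 6.99 (0.59 ± 0.18, 0.97 with the block). In all 3 the lowest huoxue value lay above the highest rosiglitazone value. The choice by size required this of Gdf11 and Mep1a, and the choice by a low P value favoured it for Foxo4. Misp3 differed by 0.66 ± 0.15 and the olfactory receptor gene Olfr1350 by 0.67 ± 0.11, also without overlap, as their choice required.

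Adjusted p values below 0.1 were reached by 16 genes, 15 lower and 1 higher in huoxue. For 7 of these, all lower, every array of both groups detected a probe above background, and all 7 were called with slide as a block too. They include, beside Cd163 and Pcolce2, the genes Lyz1, Prg4 and Arhgap25, which were picked out after their values were seen. Lyz1, a lysozyme, was at 9.44, 9.65 and 9.30 in huoxue and 10.33, 10.14 and 10.34 in rosiglitazone muscle. Prg4, the lubricin of joints and tendons, was at 9.75, 9.92 and 9.80 against 10.40, 10.51 and 10.54. Arhgap25, a GTPase-activating protein of blood cells, was at 6.89, 7.03 and 7.00 against 7.66, 7.63 and 7.67. The groups were apart in all 3, by -0.81, -0.66 and -0.68, and rosiglitazone array 1 lay with the other rosiglitazone arrays. Another 7 of the 16 genes were well above background on no array of 1 group. These passed the filter only through the group where they were higher.

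**Figure D2:**
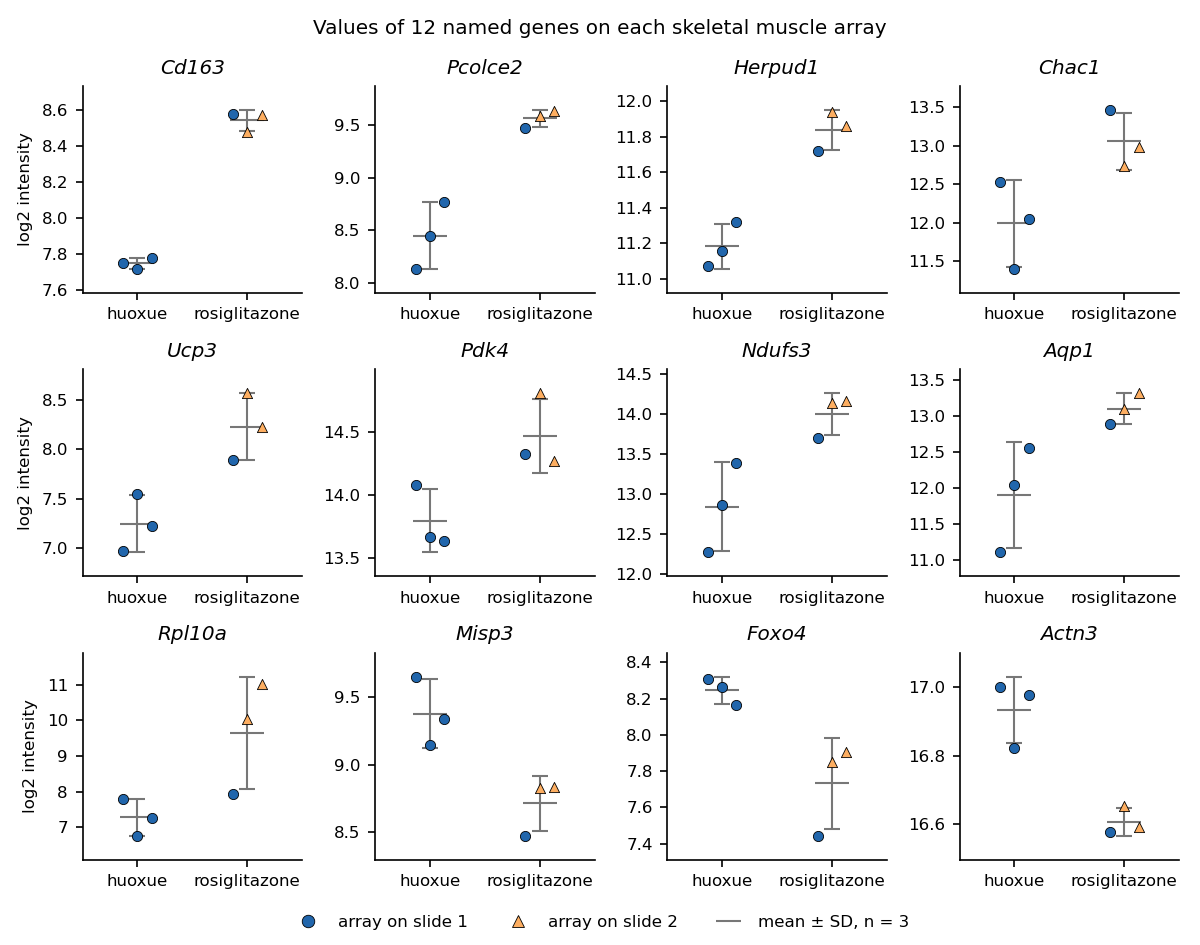
Log2 intensity (y axis) of 12 named genes on each array of the huoxue and rosiglitazone groups, with bars for mean ± SD of 3 arrays; circles are arrays on slide 1 and triangles arrays on slide 2. For Cd163, Pcolce2, Chac1 and Actn3 the rosiglitazone array on slide 1 lies with its group, and for Rpl10a, at 7.94, it lies near the huoxue arrays.

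The endoplasmic reticulum stress genes were led by Herpud1, which encodes a membrane protein that takes part in the degradation of misfolded proteins. Of 21 list members tested, 3 were lower and 0 higher in huoxue (14.3%, beside 12.1% of all genes called and 6.92% called lower). The median difference was -0.04 beside 0.01 over all genes, so the share called and the median were near those of all genes. The upstream sequences of Herpud1 and Chac1, the called genes with the largest differences on the list, are shown because both hold an element through which such genes are known to respond. They are the 250 bases before the start of each gene, from RefSeq (GRCm38.p6, both on the plus strand), with matches in capitals.
Herpud1 chr8:94386179-94386428: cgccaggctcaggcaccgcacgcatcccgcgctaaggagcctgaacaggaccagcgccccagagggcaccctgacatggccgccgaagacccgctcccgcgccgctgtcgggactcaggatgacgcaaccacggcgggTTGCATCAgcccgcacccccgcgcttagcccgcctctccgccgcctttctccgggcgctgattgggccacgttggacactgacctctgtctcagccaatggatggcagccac
Chac1 chr2:119350992-119351241: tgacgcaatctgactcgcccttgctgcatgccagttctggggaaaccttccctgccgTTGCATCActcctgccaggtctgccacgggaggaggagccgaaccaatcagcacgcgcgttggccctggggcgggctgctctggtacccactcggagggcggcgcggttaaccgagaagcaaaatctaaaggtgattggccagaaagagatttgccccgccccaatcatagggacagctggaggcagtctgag
The capitals mark the C/EBP-ATF element TGATGNAA, read on the opposite strand in both genes. Both strands were searched. Of 32851 promoters of the same length in the RefSeq table, 3.45% hold TGATGNAA. It is held by 3 of the 18 list members that the RefSeq table lists, Asns, Chac1 and Herpud1, and Asns was not called (-0.01 ± 0.08). The cAMP response element TGACGTCA was found in 0 of the 18 and in 1.55% of all promoters, and a match is a description of the letters only.

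Herpud1 was at 11.07, 11.16 and 11.32 in huoxue and 11.72, 11.94 and 11.86 in rosiglitazone muscle. The groups were apart, and the array of the shared slide was the lowest of the rosiglitazone arrays but above all huoxue arrays. The difference was -0.66 ± 0.10 (adjusted p = 0.14, limma) and -0.54 with slide as a block. Chac1, an enzyme that breaks down glutathione and is switched on by the factor ATF4, was at 12.53, 11.39 and 12.04 against 13.47, 12.74 and 12.98. No huoxue value reached a rosiglitazone value, as its choice by size required, although huoxue array 1 came close. The difference was -1.07 ± 0.29 (adjusted p = 0.263), or 2.1-fold, and -1.48 with the block. Dnajc3, a co-chaperone in the endoplasmic reticulum, differed by -0.27 ± 0.10 without the block and by -0.15 with it, where it was no longer called.

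Among 21 tested targets of PPAR receptors, 2 were lower and 2 were higher in huoxue (19.0%, beside 12.1% of all genes), with a median of -0.12. Ucp3, the mitochondrial uncoupling protein of muscle, was at 6.97, 7.54 and 7.22 in huoxue and 7.89, 8.57 and 8.23 in rosiglitazone muscle. Pdk4, the kinase that shuts pyruvate out of oxidation, was at 14.08, 13.67 and 13.63 against 14.32, 14.80 and 14.27. In both genes every huoxue array lay below every rosiglitazone array. Ucp3 differed by -0.99 ± 0.20 (adjusted p = 0.183, limma; -0.65 with the slide block) and Pdk4 by -0.67 ± 0.17 (adjusted p = 0.257; -0.53 with the block, no longer called). Gpd1, which makes glycerol phosphate from a glycolytic intermediate, was higher in huoxue by 0.35 ± 0.09 (0.50 with the block), and the lipid droplet protein gene Cidea by 0.23 ± 0.09 (0.14 with the block, no longer called). With slide as a block the list leaned further to one side, with 6 lower and 1 higher and a median of -0.32, beside 7.0% of all genes called lower and 6.76% called higher in that fit.

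The classical fat cell targets of rosiglitazone were not called over the 6 arrays, and 3 of those described here were lower in huoxue with slide as a block. Adiponectin (Adipoq) was at 11.59, 11.66 and 10.72 in huoxue and 11.96, 11.55 and 11.32 in rosiglitazone muscle, Fabp4 at 13.59, 13.68 and 13.22 against 14.08, 13.57 and 13.40, and Pparg itself at 10.18, 10.13 and 9.72 against 10.45, 9.82 and 9.62. The groups overlapped in all 3, and rosiglitazone array 1 was the highest array of its group in each. Fabp4 differed by -0.58 with slide as a block and was called, while Adipoq (-0.64) and Pparg (-0.44) were not. Angptl4, a lipase inhibitor, differed by -0.58 ± 0.38, with rosiglitazone array 1 at 11.60 far above the other 2 arrays of its group (10.23 and 10.36), and Cd36, a fatty acid transporter, by -0.16 ± 0.13. With the block, which keeps that array alone, Angptl4 differed by -1.46 and Cd36 by -0.38, both called. The summed linear level of the 8 adipocyte markers was 19033 to 30906 on the huoxue arrays and 24145 to 40780 on the rosiglitazone arrays, with 7 of 8 lower on average in huoxue, 0 called at the unadjusted threshold in limma (2 with the block, both lower, at a median of -0.56), and 40780 on rosiglitazone array 1. The ranges overlapped, and the part of fat within the muscle samples in the values of these genes was not tested.

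Fuel use genes showed few calls beyond these. The share called was 4.35% in fatty acid oxidation, 12.5% in insulin signalling and glucose transport, and 7.69% in glycolysis and glycogen use. Of all genes, 12.1% were called and 6.92% called lower, and 7.0% were called lower with slide as a block. In fatty acid oxidation 1 of 23 genes was called, Cpt1a, the gate of fatty acid entry into mitochondria in most tissues, which was lower in huoxue by -0.33 ± 0.11. Its 2 probes differed in size, at -0.11 and -0.55, and the second was not well above background on any huoxue array. In insulin signalling and glucose transport 3 of 24 were lower and 0 higher, among them Igf2, an insulin-like growth factor, by -0.33, and with slide as a block 4 were lower and 1 higher. In glycolysis and glycogen use 2 of 26 were lower, Hk2 by -0.53 and Phkg1 by -0.95, and both lost their difference on the shared slide (0.04 and -0.07). For Hk2, the hexokinase of insulin-responsive muscle, the huoxue arrays and rosiglitazone array 1 lay between 10.47 and 10.53, and rosiglitazone arrays 2 and 3 at 11.27 and 11.38.

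Genes of oxidative phosphorylation, the respiratory chain and ATP synthase of mitochondria, were called in 1 direction. Of 77 subunits tested, 12 were lower and 0 higher in huoxue (15.6%, beside 12.1% of all genes called and 6.92% called lower). A negative difference was held by 54 of 77, with a median of -0.07. Ndufs3, a core subunit of complex I, was at 12.27, 12.86 and 13.38 in huoxue and 13.70, 14.13 and 14.16 in rosiglitazone muscle, a difference of -1.16 ± 0.26. The groups were apart, as its choice by size required, with the huoxue arrays spread widely. Cox7c of complex IV differed by -1.03, Uqcrfs1 of complex III by -0.64 and Cox6b1 of complex IV by -0.61. In all 12 genes rosiglitazone array 1 was the lowest of its group. In all 12 the difference shrank with slide as a block, where 0 of 12 passed the unadjusted threshold in limma. The sign on the shared slide was the same for all 12, as it was for 1522 of 1528 called genes (99.5%). The shared-slide difference reuses arrays of the full difference, so the kept sign is no separate evidence. With the processed signal the list held 3 higher and 6 lower with a median of 0.06, so its direction rests on the scaling too.

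Of 13 fast fibre genes, 4 were lower and 1 higher in huoxue (38.5%, beside 12.1% of all genes), with a median of -0.09. Actn3, the alpha-actinin of fast fibres, was at 17.00, 16.82 and 16.98 in huoxue and 16.58, 16.66 and 16.59 in rosiglitazone muscle. Myh4, the myosin heavy chain of the fastest fibres, was at 16.17, 16.58 and 16.75 against 16.99, 16.92 and 17.04, and Mylpf, a fast regulatory light chain, at 16.72, 16.46 and 16.75 against 16.93, 17.17 and 17.42. None of these 3 overlapped between groups, and Actn3 ran opposite to Myh4 and Mylpf. The differences were 0.32 ± 0.08, -0.48 ± 0.14 and -0.53 ± 0.14, and with slide as a block only that of Actn3 was called. The calcium buffer gene Pvalb differed by -0.70 and Myl1 by -0.28. With slide as a block the fast fibre list held 2 higher and 0 lower, with a median of -0.05, so neither was called lower there. In the processed signal 1 of the fast fibre genes was called, higher, and 0 lower. Of 14 slow fibre genes, Actn2 (-0.60) and Tpm3 (-0.64) were lower and 0 higher (14.3%), with a median of 0.00. The brighter probe of Tpm3 differed by -0.05 and the other by -1.22, and with slide as a block Tpm3 was at -0.15 and no longer called. Among 32 genes of muscle growth and wasting, 9.38% were called, beside 12.1% of all genes. Foxo4 was higher, Fst, the myostatin antagonist follistatin, was lower by -0.48, and Gadd45a was lower by -1.07. Gadd45a was well above background on 1 huoxue array and differed by -0.35 with the block, where neither it nor Fst was called.

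The ribosomal proteins were called in both directions. Of 81 tested, 9 were lower and 6 higher (18.5%, beside 12.1%), with a median of 0.00. The balance turned with the scaling, to 5 lower and 14 higher with the processed signal (median 0.13) and 7 lower and 12 higher with an offset of 50 in the background correction. Among the 6 higher ones, Rpl18 differed by 0.31, Rps14 by 0.26, Rpl5 by 0.24, Rpl15 by 0.21 and Rpl35 by 0.19, and of these Rpl5 alone was called with slide as a block. The 9 lower ones ran from -0.24 to -2.37. They held 3 of the 12 largest decreases among called genes without overlap that all 6 arrays detected. Rpl10a was at 7.81, 6.77 and 7.28 in huoxue and 7.94, 10.03 and 11.01 in rosiglitazone muscle. Rosiglitazone array 1 was close to huoxue array 1, and both arrays of slide 2 were far higher. The difference of -2.37 ± 0.68 was -0.65 on the shared slide, and the same held for Rps27a (-1.16, then -0.44) and for the small GTPase gene Rhou (-1.16, then -0.12), none of them called there. Rpl30 (-1.41 ± 0.30) and Rps12 (-0.47 ± 0.10) were still called, at -0.83 and -0.53, although the brighter probe of Rps12 differed by -0.27 and the other, at -0.67, was not well above background on any array. Ribosomal genes have many processed copies in the genome, so their probes may read more than 1 gene.

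**Figure D3:**
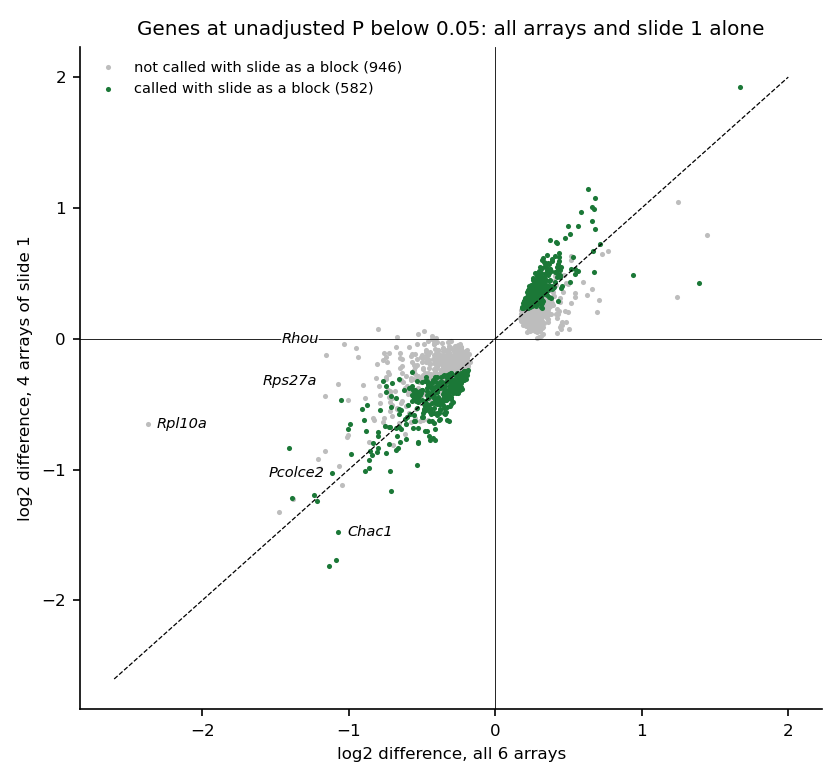
For 1528 genes at an unadjusted P value below 0.05 with a value on rosiglitazone array 1, the log2 difference over all 6 arrays (x axis) against that over the 4 arrays of slide 1 (y axis); the dashed line marks equal values and green the 582 genes also called with slide as a block. The x and y values share 4 arrays, and Rpl10a, Rps27a and Rhou lie near 0 on slide 1 compared with their full difference.

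With slide as a block 1738 genes (13.8%) were called, of which 582 (4.61% of the genes tested) were called both ways with the same sign, 274 higher and 308 lower. For 354 of the called genes rosiglitazone array 1 was closer to the huoxue mean than to the mean of the other rosiglitazone arrays.

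Of the other large decreases, Aqp1, the water channel of capillary endothelium and red cells, was at 11.11, 12.04 and 12.56 in huoxue and 12.89, 13.09 and 13.31 in rosiglitazone muscle (-1.20 ± 0.32, -0.98 with the block, not called there). Washc1, a subunit of a complex that builds actin on endosomes, was at 7.90, 8.87 and 9.83 against 10.09, 10.21 and 10.45 (-1.38 ± 0.41, -1.22 with the block, not called there). In both the huoxue arrays spread over more than 1 log2 unit, without reaching the rosiglitazone arrays, as their choice by size required. Gm6462, Dhrs7b and Rpa3 differed by -1.06, -1.05 and -1.01, and of these Dhrs7b alone was called with the block (-0.47). The 12 largest increases among called genes without overlap that all 6 arrays detected were smaller, from 0.54 to 0.77. The 5 called genes higher by at least 1 did not pass this choice. Spns3 was at 7.97, 8.12 and 7.86 in huoxue and 7.47, 7.40 and 7.05 in rosiglitazone muscle (0.68 ± 0.13). Esyt2 led these 12 by size (0.77, and 0.67 with the block, not called there). Only 1 of its 3 probes was well above background on all arrays, and that probe differed by 0.06.

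Of 8 macrophage markers tested, 4 were lower and 0 higher in huoxue (50%, beside 12.1% of all genes called and 6.92% called lower). They were Cd163, Mrc1 (-0.55), Lyz2 (-0.38) and Adgre1 (-0.32), and all 8 markers had a negative mean difference, with a median of -0.25. Lyz2 was at 11.28, 11.19 and 11.02 in huoxue and 11.70, 11.28 and 11.63 in rosiglitazone muscle, and Adgre1, the F4/80 antigen, at 6.93, 6.67 and 6.97 against 6.98, 7.27 and 7.27. The groups met for Lyz2, at huoxue array 1 and rosiglitazone array 2, and were barely apart for Adgre1. Csf1r (-0.03 ± 0.11), C1qa (-0.18 ± 0.17) and Cd68 (-0.16 ± 0.18) were not called. Cd163 and Lyz2 stayed called with slide as a block, and Mrc1 (-0.27) and Adgre1 (-0.12) did not. The summed linear level of the 8 markers was 4509 to 5207 in huoxue and 5061 to 6693 in rosiglitazone muscle, and these ranges overlapped. Fewer macrophages and less RNA per macrophage cannot be told apart in bulk muscle. Lyz1 and Lyz2 are close copies whose probes may share signal.

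For other cell types the calls depended on the slide block, beside 12.1% of all genes called without it and 7.0% called lower with it. Of the 7 endothelial markers 1 was lower, Cdh5 (-0.42 ± 0.14), whose probes differed by -0.10 and -0.74. With slide as a block Cdh5 was not called, and 3 other markers were lower, among them Tie1 (-0.60) and Emcn (-0.46), picked out after their values were seen, with a median of -0.37. The summed endothelial level was 5140 on rosiglitazone array 1 and 3733 to 4046 on the other 5 arrays. The nitric oxide, endothelin and angiogenesis list had 0 of 27 genes past the unadjusted threshold in limma, with a median of 0.02, and 3 lower with the block. Of the 9 fibroblast and tendon markers and the 7 nerve markers 0 were called, with summed levels from 15750 to 23499 and from 1559 to 2769 on the 6 arrays. With the block 4 fibroblast and tendon markers were lower, among them Fmod (-0.88) and Thbs4 (-0.48), also picked out after their values were seen, with a median of -0.31. Keratinocyte genes varied by sample: Krt5, a keratin of the epidermis, was at 10.27, 6.36 and 5.99 in huoxue and 8.07, 8.45 and 9.92 in rosiglitazone muscle, and the 5 keratinocyte markers summed to 4343 on huoxue array 1 against 485 and 512 on the other huoxue arrays. On rosiglitazone arrays 1, 2 and 3 these markers summed to 1255, 1227 and 3224, above huoxue arrays 2 and 3. All 5 had a lower mean in huoxue, with a median difference of -0.60. None of the 5 was called (0 at the unadjusted threshold in limma). Huoxue array 1 thus stood apart from its group in these genes, and the part of skin in the other results was not tested.

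Genes of matrix and inflammation had scattered calls. The share called was 11.8% of the collagen chains and 9.68% of the matrix genes. Of all genes, 12.1% were called and 6.92% called lower, and 7.0% were called lower with slide as a block. Among 34 collagen chains 2 were lower and 2 higher (11.8%), against 6 lower and 0 higher with slide as a block (median -0.15) and 3 lower and 7 higher with the processed signal. Col5a3 was lower by -0.38. The other lower one was Col8a1, whose bright probe differed by -0.01 and whose other probe was above background on 0 huoxue arrays and 1 rosiglitazone array. Col6a4 was higher by 0.39, with no probe well above background on all huoxue arrays, and was not called with the block. Among 31 matrix genes 3 were lower and 0 higher, Sparc by -0.56 ± 0.13, Fbn1 by -0.46 ± 0.11 and Mmp3 by -0.30 (not called with the block), and with the block 6 were lower. Sparc, a collagen-binding matrix protein, was at 11.90, 12.14 and 11.66 in huoxue and 12.53, 12.51 and 12.32 in rosiglitazone muscle, and stayed called with the block (-0.63), with probes at -0.92 and -0.19. Of 23 cytokine and NF-kB genes, Tnfaip3, an inhibitor of NF-kB signalling, was higher by 0.39 ± 0.08, and Nfkb1 (-0.32) and Ccl11 (-0.32) were among 3 that were lower, against 6 lower with the block. Nfkb1 was at 6.99, 7.11 and 6.95 in huoxue and 7.33, 7.33 and 7.34 in rosiglitazone muscle, with the rosiglitazone arrays nearly equal. The share called was 17.4% here, beside 12.1% of all genes.

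Of 25 Nrf2 and antioxidant genes, 4 were lower and 0 higher in huoxue (16%, beside 12.1% of all genes called and 6.92% called lower). The median was -0.06, and with the processed signal 2 were lower and 4 higher with a median of 0.06. Nfe2l2, the gene of the regulator Nrf2 itself, was at 9.03, 9.12 and 9.23 in huoxue and 9.37, 9.29 and 9.48 in rosiglitazone muscle, a difference of -0.25 ± 0.09. Of its 3 probes 1 differed by -0.65 and the others by -0.09 and -0.02, and with the block Nfe2l2 was at -0.24 and not called. Gclm, a subunit of the enzyme that starts glutathione synthesis, differed by -0.44 ± 0.10, the transferase gene Gsta4 by -0.72 ± 0.17 and the peroxidase gene Prdx6 by -0.30 ± 0.09. Gclm and Gsta4 were well above background on 1 huoxue array each, so their lower level is close to the limit of measurement, and Gsta4 was not called with the block. Of the heat shock list 3 of 26 were lower, among them Bag3 (-0.35) and Dnaja1, and Dnajb5 (0.26) was higher. The share called was 15.4% there, beside 12.1% of all genes. Of the 3 probes of Dnaja1, 2 differed by -0.05 and -0.10, and the third was above background on 0 huoxue arrays.

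Of 8 tested regulators and targets that the study names for these treatments, 1 was called, Nfe2l2 (12.5%, beside 12.1% of all genes), and since the study chose the genes on these samples their values are no independent evidence. Dbp, a clock-controlled transcription factor, differed by 0.12 ± 0.10, Mybl2 by -0.33 ± 0.20, Mta1 by -0.04 ± 0.09, Psmd3 by -0.01 ± 0.17 and Polr2a by -0.02 ± 0.15. Rb1 differed by 0.01 ± 0.08 here, by -0.26 with the processed signal and by -0.89 in the authors' value table. Smad7 and Nr0b2 did not pass the filter on dim probes. Of 17 clock genes 2 were higher, among them Hlf (0.33), and Nr1d2 (-0.19) was lower (17.6%, beside 12.1% of all genes). Of 22 cell cycle genes 1 was called (4.55%), Ccna2 (0.36). Hlf, Nr1d2 and Ccna2 were not called with the block.

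A further 5 lists held calls in both directions. The share called was 16% for interferon genes, 14.3% for immediate early genes and 16.7% for adipokines and adipocyte regulators, beside 12.1% of all genes. It was lower for fatty acid and cholesterol synthesis (9.09%) and for proteasome subunits (5.41%). Of 25 interferon genes 3 were lower, among them Irf1 (-0.36, and -0.17 at its brighter probe), and Mx2 (0.34) was higher. Of 21 immediate early genes 2 were lower, among them Klf2 (-0.31), a flow-responsive transcription factor, and Ier2 (0.21) was higher. Of 18 adipokines and adipocyte regulators, 2 were lower, among them the transcription factor gene Cebpb (-0.42), and Sfrp5 (0.31) was higher. Of 22 genes of fatty acid and cholesterol synthesis, Me1 (-0.74) was lower and Insig1 (0.24) higher, and Me1 was at 0.07 with its brightest probe. Of 37 proteasome subunits, Psma1 (-0.29) was lower and Psmd13 (0.27) higher. With slide as a block Klf2, Cebpb, Sfrp5, Me1, Insig1, Psma1 and Psmd13 were not called. With the processed signal each of these 5 lists held more higher than lower calls, as did all genes.

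**Figure D4:**
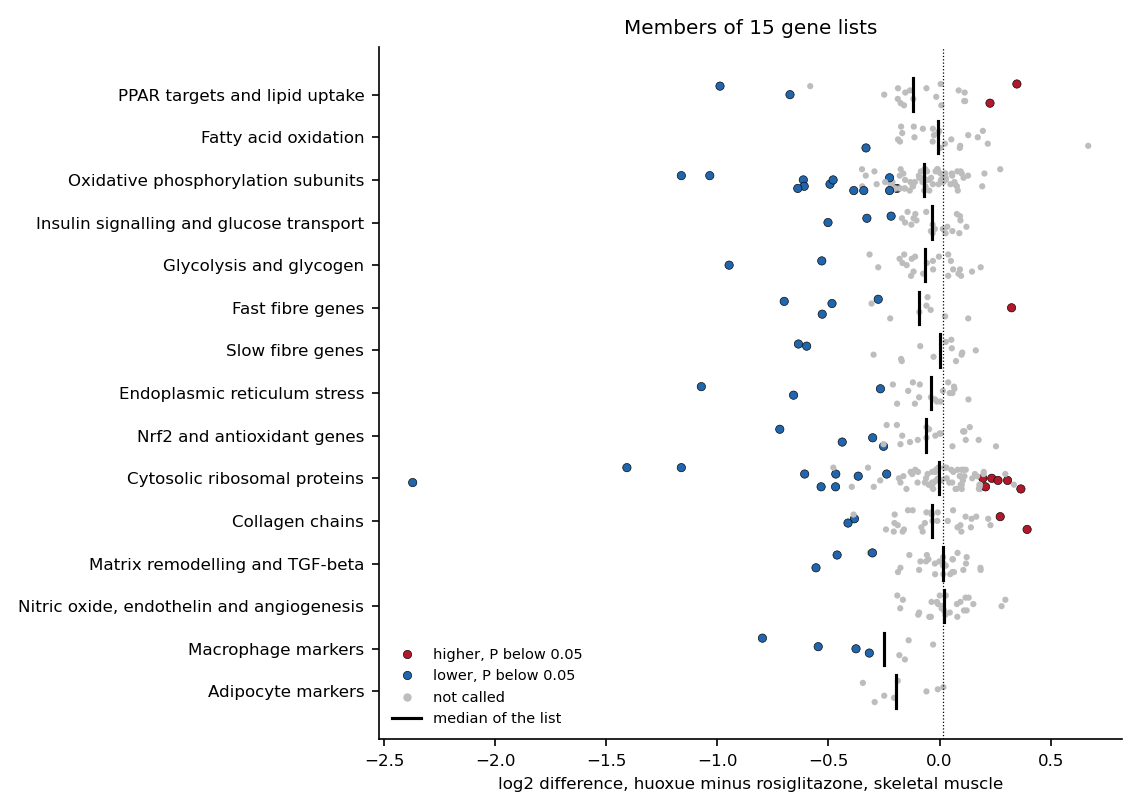
Log2 difference, huoxue minus rosiglitazone (x axis), of the tested members of 15 gene lists (rows), with red for genes higher and blue for genes lower at an unadjusted P value below 0.05, grey for the rest, a thick line for the median of the list and a dotted line for the median of all genes. The oxidative phosphorylation row holds 12 blue and 0 red points, and the ribosomal row 9 blue and 6 red; with the processed signal these counts were 6 lower and 3 higher, and 5 lower and 14 higher.

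The same contrast in aorta, on 3 arrays of each group, had 41 of 14928 genes below the unadjusted threshold (0.275%) and 0 past the adjusted one (limma), with a median standard error of 0.20 against 0.10 in muscle. Huoxue aorta arrays 1 and 2 lay on slide 10, and huoxue aorta array 3 lay on slide 11 with all 3 rosiglitazone aorta arrays. Treatment and slide are thus partly mixed in aorta, and no slide block was fitted there or for the difference between tissues. The aorta count moved with single arrays: it was 147 without huoxue array 1 and 380 without huoxue array 3, the only huoxue array on slide 11. It was 27 without rosiglitazone array 1 and 104 without rosiglitazone array 3. The difference between the tissues, tested as an interaction, was called for 323 of 15143 genes without adjustment (2.13%) and for 0 after it, so the low count in aorta does not show that the treatments differed only in muscle. Of the 1489 muscle calls tested in aorta, 932 (62.6%) had the same sign there, beside 56.0% of 12412 genes tested in both, and 3 were called in both.

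Among the 12 increases and the 12 decreases named for their size in muscle, 0 passed the unadjusted threshold of limma in aorta. The difference between the tissues was called without adjustment for 4 of the increases and 5 of the decreases, beside 2.13% of all genes. These 24 genes were chosen for their size in muscle, which favours a difference between the tissues. For Pcolce2 the aorta difference was 0.04 ± 0.23 and the muscle minus aorta difference -1.15 ± 0.30, and for Herpud1 they were -0.02 ± 0.16 and -0.64 ± 0.19, all with an adjusted p of 1 in limma. For Cd163 the aorta difference was -0.37 ± 0.29, in the direction of muscle, and the difference between tissues was not called (-0.43 ± 0.31).

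**Figure D5:**
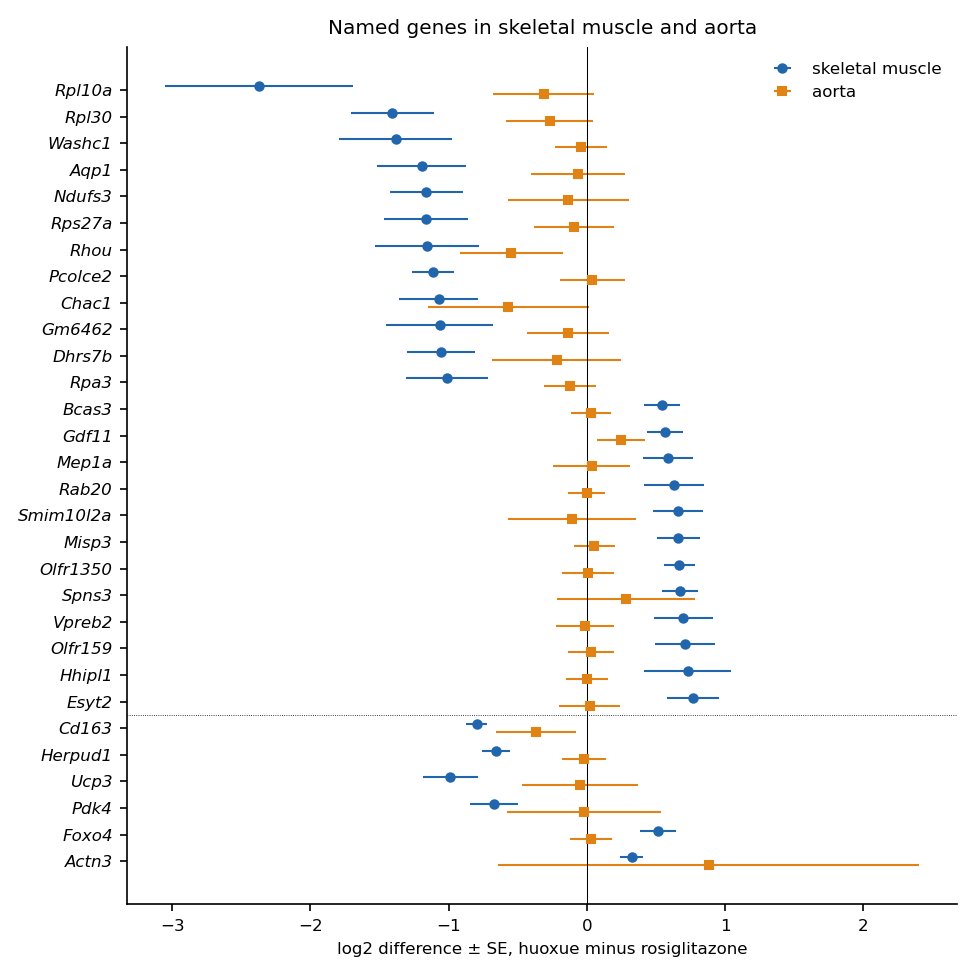
Log2 difference ± SE, huoxue minus rosiglitazone (x axis), in skeletal muscle (circles) and aorta (squares) for the 24 genes named for their size in muscle, and below the dotted line for 6 further named genes. In aorta the 24 genes lie nearer 0 than in muscle, and Pcolce2 lies at 0.04 against -1.11.

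Untreated model mice and healthy mice give a reference for the levels, without a test, because their arrays lay on other slides except 2 healthy arrays on slide 2. Of the 84 named genes that were called, the mean of the untreated model (group C) was nearer the rosiglitazone mean than the huoxue mean in 76. These genes were chosen for their size or low P value in this contrast. The same count over all genes was not made, so the 76 are no finding about the treatments. Ucp3 was at 8.43 ± 0.58 (SD, n = 3) in group C and 9.12 ± 0.45 in group G, beside 7.24 ± 0.29 in huoxue and 8.23 ± 0.34 in rosiglitazone muscle. Cd163 was at 8.06 ± 0.28 in group C, between the 2 treated groups, and Herpud1 at 12.34 ± 0.06, above both. Chac1, at 12.24 ± 0.21 in group C, was nearer huoxue (11.99 ± 0.57) than rosiglitazone muscle (13.06 ± 0.37). Since no array of group C shared a slide with a huoxue array, treatment and slide cannot be told apart in these comparisons.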

How the data were processed

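Total RNA of skeletal muscle from 3 huoxue and 3 rosiglitazone mice was labelled by the authors and hybridized to one-colour Agilent arrays, 1 per sample, and read with Agilent Feature Extraction 10.7. The deposited scanner files hold the intensity of each spot and of its local background, not normalized, and a table of normalized log2 values, which the authors deposited as well, was used as an alternative. As in the study's methods, limma was used (3.58.1, in R 4.3.3): normexp background correction with an offset of 0 on median intensity, quantile normalization over the 42 arrays, log2, lmFit and eBayes on the 6 arrays, with Benjamini-Hochberg adjustment over all genes tested. Control spots were left out, irregular spots were masked, and spots of a probe and then probes of a gene were averaged. Of 41174 probes, 33636 were named through RefSeq (GRCm38.p6), giving 19987 genes. Genes were tested if the 3 arrays of either group all marked a probe as above background, which kept 12627. The median over pixels was used because not all files list the mean.

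The aorta arrays of both groups were fitted likewise, and the tissues were compared with an interaction term. In muscle alone, slide was fitted as a fixed and as a random block. Genes were named by a rule: the 12 largest differences in each direction among called genes without overlap whose probe all 6 arrays detected, the up to 3 members of each list with the lowest P value, the genes that the study names for a treatment, and genes of the rosiglitazone receptor and its targets. Results for some genes are not reported here. The members and lists were chosen with earlier results of these data known. Lists are described by counts and medians and were not tested as sets. Promoter sequences were taken from RefSeq and searched on both strands. The fit was tested on simulated data. Python 3.11.15 (pandas 2.3.3, numpy 2.4.6, matplotlib 3.10.9) was used for the tables and plots.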

Additional observations from a re-analysis of the deposited data

How the results depend on the processing

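Skeletal muscle gave 1529 genes at an unadjusted P value below 0.05, and the alternatives other than leaving out single arrays gave between 1027 and 2169, except 429 when all 42 arrays shared 1 estimate of the spread. Leaving out each array in turn gave 1089 to 2179 genes without adjustment and 0 to 50 after it. The count after adjustment, 0, became 16 in the authors' log2 value table, 5 with all 21 muscle arrays in the fit, 2 with all 42 arrays, 9 with slide as a fixed block, 4 with the 4 arrays of slide 1 alone and 1 with the trend and robust options of eBayes. The cause was not tested. In aorta the count of 41 became 73 with the processed signal, 134 without the filter and 70 with the replicate number as a block, and 27 to 380 when each array was left out. The difference between tissues went from 323 to 603 without the filter. With the replicate number as a block muscle gave 1562 genes and 0 after adjustment. Same-numbered samples did not deviate together (r = 0.031, -0.026 and 0.095), so the numbers were not taken as a pairing.

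Of 1840 values of the 84 called named genes under alternatives, 1488 kept direction and call, 349 kept the direction alone and 3 turned: Me1 to 0.07 with the brightest probe, and Hk2 to 0.04 with slide as a fixed block and with the arrays of slide 1 alone. Of the genes not called, Rb1 turned to -0.26 with the processed signal and to -0.89 in the authors' table. With slide as a fixed block, 39 of the 84 stayed called, 44 lost the call and 1 turned. The precision is limited by 3 arrays a group, of which only 1 rosiglitazone array shared the slide of the huoxue arrays.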
